A study of Rattus norvegicus with 119 samples.

Results

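The genes described here are the collagens together with the main matrix proteins that fibroblasts secrete. They were taken by name alone. A member was any probe set that carried exactly 1 gene symbol and whose symbol was either a collagen chain or one of the proteoglycan genes Dcn, Lum, Ogn and Bgn, the glycoprotein genes Fbln1, Fbln2 and Fn1, the growth factor gene Igf2 or the transporter gene Slc6a13. This gave 36 probe sets of 34 genes, out of 29214 probe sets on the array and 15310 with exactly 1 symbol. The type VI chain Col6a4 had 3 probe sets, and every other member gene had 1. Other collagen chains, among them Col4a2, Col6a1, Col6a2, Col6a3, Col18a1 and Col25a1, were not analysed here. The rule itself uses names and no measured value, but it was written with earlier results of these data known.

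RNA from whole hippocampus was hybridised to 1-colour Affymetrix arrays, 1 array per rat, with 40 Fischer, 40 Long Evans and 39 Sprague Dawley animals. In each strain and sex there were 5 groups: rats on control food, rats with perinatal lead acetate at 250 or 750 ppm, and rats with postnatal lead acetate at 250 or 750 ppm. Perinatal lead was given in the food of the dams, starting 10 days before breeding and ending at weaning, while postnatal lead ran from birth to postnatal day 45. All rats, controls included, were on control food at the end and were collected on postnatal day 55. The 30 groups held 4 animals each, apart from the Sprague Dawley male controls, which held 3. Litters were not given in the labels and each group had its own run of successive label numbers, so litter or handling batch and group cannot be told apart. The tests treated animals as independent, and the p-values measure the spread between these animals.

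Collagens are trimers of alpha chains. Fibrillar types I, II, III, V and XI build fibrils, type IV builds the sheets of basement membranes, and other types sit on fibrils, anchor them or span the cell membrane. In brain, fibrillar collagen is made mainly by fibroblasts of the meninges and of the larger vessels rather than by neurons or glia. The same fibroblasts make decorin, lumican, osteoglycin and biglycan, small proteoglycans that bind collagen fibrils and growth factors, and the meninges also express Igf2 and the GABA transporter gene Slc6a13. A dissected hippocampus can carry strips of meninges and of choroid plexus, which itself expresses Igf2.

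RefSeq promoter windows on build GRCr8, from 250 bases before to 50 bases after an annotated start, were matched for 24 member genes (25 windows, since Igf2 had a pair). The windows of 3 members are shown because the comparisons below turn on them: Fbln2 for the effect of lead, Lum for the strains, and Col1a2 as a fibrillar chain that followed the meningeal markers. Each is written 5′ to 3′ on the strand of the gene, and capitals mark a match on either strand to TATAAA (the TATA box), to CCAAT (the CCAAT box) or to GGGCGG (the core of the GC box). The windows are chr4:125261409-125261708 (plus strand) for Fbln2, chr7:34245456-34245755 (plus strand) for Lum and chr4:33518307-33518606 (plus strand) for Col1a2.
Fbln2: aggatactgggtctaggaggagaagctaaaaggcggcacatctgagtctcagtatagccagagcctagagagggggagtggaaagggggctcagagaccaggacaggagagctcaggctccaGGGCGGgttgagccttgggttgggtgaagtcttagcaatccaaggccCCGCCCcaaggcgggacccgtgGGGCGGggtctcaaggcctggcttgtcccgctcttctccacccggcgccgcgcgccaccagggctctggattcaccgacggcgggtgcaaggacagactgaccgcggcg
Lum: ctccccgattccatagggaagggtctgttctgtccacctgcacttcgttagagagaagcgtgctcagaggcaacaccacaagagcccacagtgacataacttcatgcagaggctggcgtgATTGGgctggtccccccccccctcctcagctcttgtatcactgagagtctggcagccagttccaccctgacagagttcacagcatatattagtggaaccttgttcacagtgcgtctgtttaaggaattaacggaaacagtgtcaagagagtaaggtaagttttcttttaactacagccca
Col1a2: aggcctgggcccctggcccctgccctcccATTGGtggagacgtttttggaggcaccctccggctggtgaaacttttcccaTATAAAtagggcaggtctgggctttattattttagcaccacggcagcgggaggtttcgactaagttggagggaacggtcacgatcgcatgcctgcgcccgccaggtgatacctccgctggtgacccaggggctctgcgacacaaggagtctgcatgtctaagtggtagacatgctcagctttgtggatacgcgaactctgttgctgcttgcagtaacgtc
The Fbln2 window held 3 matches to GGGCGG and none to the other motifs. The Col1a2 window held both TATAAA and, on the opposite strand, CCAAT, and the Lum window held CCAAT on the opposite strand. Over the 25 member windows, 14 (56%) held GGGCGG against 33.1% of all 33469 windows, 5 (20%) held TATAAA against 14.2%, and 8 (32%) held CCAAT against 37.5%. The median GC content was 62.0% in the member windows and 51.7% in all windows. A match describes these letters only.

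Markers listed for hippocampal neurons were present in every animal. No other brain region was measured, so their levels do not part hippocampus from its neighbours. All 11 measured hippocampal neuron markers lay above the 40th percentile of mean level (6.82 on the log2 scale) in every array, with Camk2a between 13.12 and 13.39. Of 19 meningeal markers that are not members, 10 lay above that percentile in every array. By mean level 17528 of the 29214 probe sets lay above it, and the share above it in every array was not recorded. The count of 10 therefore does not show that meninges were present. The mean log2 level of the 19 markers (the meninges score) ranged from 7.59 to 8.39 in Fischer, 7.59 to 8.32 in Long Evans and 7.64 to 8.52 in Sprague Dawley animals. The choroid plexus score, the mean of 17 markers, ranged more widely, from 6.88 to 10.11 over all animals. In 8 arrays the probe sets of the sex-linked genes Eif2s3, Ddx3x and Pbdc1 lay on the side of the sex not in the label. In Long Evans these were 3 controls (male 4, females 1 and 3), and in Sprague Dawley 1 control (female 2) and 4 animals exposed to 750 ppm. The labels were kept, and calls that were lost without these arrays are named. Of the 36 members, 31 had a mean level above the 40th percentile.

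One member was called for lead. Fbln2, which encodes fibulin-2, a glycoprotein that links elastic fibres and basement membranes, was lower in Long Evans males after perinatal lead at 750 ppm. Its log2 levels were 9.03, 8.57, 8.73 and 8.56 in the Long Evans male controls and 7.73, 8.29, 7.43 and 7.70 in the exposed males. Every exposed male lay below every control. The difference was -0.93 ± 0.16 (log2, SE; limma, Benjamini-Hochberg adjusted p = 0.013; n = 4 against 4). Over all probe sets, 0.0308% were called lower in this contrast. In a tissue extract, fewer cells of a type and less RNA per cell cannot be told apart.

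Perinatal lead at 250 ppm was accompanied by low Fbln2 in females of the same strain, without passing the test. The female controls had 8.92, 8.44, 8.44 and 8.85 and the exposed females 7.80, 7.70, 7.59 and 8.31. Again the groups did not overlap, and the difference was -0.81 ± 0.16 (adjusted p = 0.10).

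In the remaining perinatal groups, Long Evans males at 250 ppm had 8.62, 8.69, 8.66 and 8.62, within the range of their controls, and females at 750 ppm had 8.25, 8.31, 8.45 and 8.52. The female values straddled the lowest control values, and the differences were -0.07 ± 0.16 and -0.28 ± 0.16 (adjusted p = 0.98 and 0.91). Whether the dose order differs between the sexes was not tested.

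After postnatal lead at 750 ppm, Fbln2 was 8.52, 7.93, 8.26 and 8.38 in Long Evans males and 8.31, 7.75, 8.27 and 8.41 in females. Each of these 8 animals lay below the lowest control labelled with its sex. The male at 8.52 lay above 8.44, the lowest control value over both sexes. In 3 Long Evans controls the sex-linked genes went against the label. The differences were -0.45 and -0.48 ± 0.16, with adjusted p = 0.38 and 1. At 250 ppm postnatally, males had 8.96, 8.73, 8.73 and 8.51 and females 8.53, 8.71, 8.58 and 8.52, close to the controls in both sexes (0.01 and -0.07 ± 0.16).

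Such low values were seen in Long Evans alone among these animals. The lowest Fbln2 level in Fischer or Sprague Dawley was 8.37, and 15 Long Evans animals lay below it, all exposed: 4 of 4 perinatal 750 ppm males, 4 of 4 perinatal 250 ppm females, 3 of 4 postnatal 750 ppm females, 2 of 4 postnatal 750 ppm males and 2 of 4 perinatal 750 ppm females. None of the 8 Long Evans controls did, their lowest being 8.44. Within groups the SD of Fbln2 was 0.24 in Long Evans, 0.10 in Fischer and 0.09 in Sprague Dawley, beside medians over all probe sets of 0.13, 0.15 and 0.13.

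In Fischer rats Fbln2 lay between 8.73 and 9.02 in the 8 controls (median 8.78) and between 8.59 and 9.0 in the 32 exposed animals (median 8.81). In Sprague Dawley rats the controls lay between 8.39 and 8.63 (median 8.58) and the exposed animals between 8.37 and 8.75 (median 8.57). Controls and exposed animals overlapped throughout in both strains, and the 16 differences ran from -0.10 to 0.13.

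**Figure D1:**
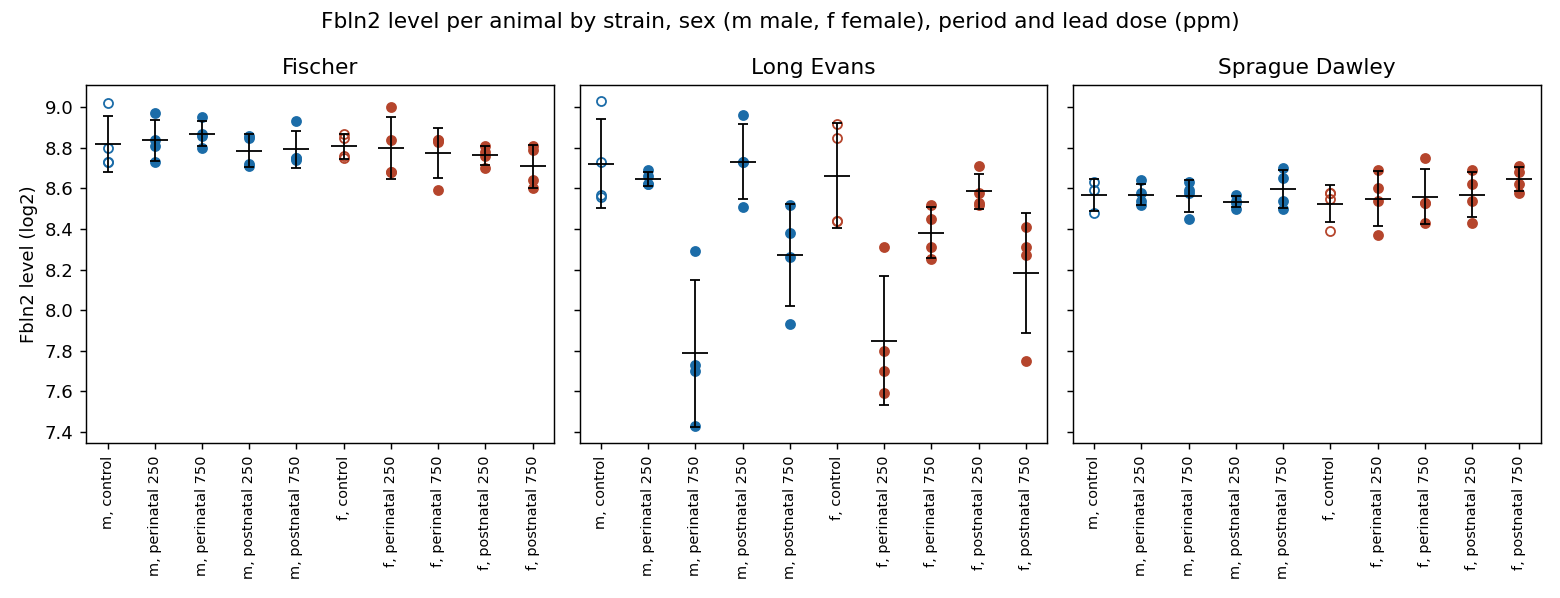
Log2 level of Fbln2 (vertical axis) in every animal, by strain (panel) and by sex, period and lead dose in ppm (horizontal axis). Open circles are controls, filled circles exposed animals, blue males and red females, and black bars are the group mean ± SD. The Long Evans perinatal 750 ppm males (7.43 to 8.29) and perinatal 250 ppm females (7.59 to 8.31) lie below all 8 Long Evans controls, while no Fischer or Sprague Dawley animal lies under 8.37.

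Averaged over the 8 exposed groups, Fbln2 differed from control by -0.38 ± 0.09 in Long Evans (adjusted p = 0.059, not called), -0.02 ± 0.04 in Fischer and 0.03 ± 0.04 in Sprague Dawley. The lead effect was higher in Sprague Dawley than in Long Evans by 0.42 ± 0.09 (adjusted p = 0.023), the only member called among the 3 strain differences of the mean effect. This contrast came from the fit of all arrays, which pooled the spread of Fbln2 over the strains. Within groups that spread was wider in Long Evans than in the others. Called shares over all probe sets were 0.0787% in that contrast, 0.13% for Long Evans minus Fischer, where Fbln2 stood at -0.36 ± 0.09 (adjusted p = 0.055), and 0.0103% for Sprague Dawley minus Fischer (0.05 ± 0.09). At an unadjusted p under 0.05, 1, 4 and 1 members passed in these 3 contrasts, beside 3.46%, 4.61% and 3.54% of all probe sets. Within Long Evans, Fbln2 was lower at 750 than at 250 ppm by 0.30 ± 0.08 and the perinatal minus postnatal difference was -0.28 ± 0.08 (adjusted p = 0.21 and 0.19).

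Markers of other tissue overlapped between these groups. In the Long Evans males, the meninges score was 7.76 to 8.32 in controls and 7.78 to 7.99 after perinatal lead at 750 ppm, and the choroid plexus score 7.36 to 9.87 and 6.99 to 8.70. In the females of the perinatal 250 ppm contrast these scores were 7.65 to 8.26 and 7.78 to 8.08 for meninges, and 6.88 to 9.64 and 7.03 to 8.97 for choroid plexus. With either score as a covariate the difference of Fbln2 in males was -0.93 and -0.94 (adjusted p = 0.018 and 0.017). With the lower or upper part of the label numbers as a block it was -0.93 (adjusted p = 0.014). That block splits each Long Evans group evenly, so it could not move this difference. It says nothing on batches that differ between groups. The 8 genes nearest to Fbln2 on chromosome 4 with a probe set of their own, 4 on each side, were chosen after values were seen. They lay between -0.10 and 0.16 in the male contrast. None of their 10 probe sets was called, and 3 passed at an unadjusted p under 0.05, beside 7.3% of all probe sets.

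These calls rest on few animals. The male call was lost without the 3 Long Evans arrays whose sex-linked genes went against the label (-0.99, adjusted p = 0.054), without male control 1 (-0.83, adjusted p = 0.067), and without exposed replicate 1 (-0.91, adjusted p = 0.093) or replicate 3 (-0.81, adjusted p = 0.053). The difference between Sprague Dawley and Long Evans was lost without all 8 such arrays (0.41, adjusted p = 0.16), in a fit of these strains alone (0.42, adjusted p = 0.11), and without all animals numbered replicate 1 (0.33, adjusted p = 0.89), replicate 3 (0.44, adjusted p = 0.28) or replicate 4 (0.43, adjusted p = 0.10).

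Apart from Fbln2 in that group, no member was called in any of the 24 contrasts of an exposed group with its controls. By strain, members gave 0 of 288 calls in Fischer, 1 of 288 in Long Evans and 0 of 288 in Sprague Dawley, beside 0.00214%, 0.0424% and 0.00813% of all probe sets. At an unadjusted p under 0.05, 9, 16 and 8 of those member tests passed, beside 4.05% over all probe sets and strains together. By contrast, the share of all probe sets ran from 1.12% to 4.26% in Fischer. It ran from 3.53% to 9.34% in Long Evans and from 2.28% to 4.61% in Sprague Dawley. The 4 contrasts of one strain and sex share their controls, so their values are given side by side only.

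The fibrillar collagens (10 probe sets) lay between -0.47 and 0.39 over the 24 contrasts. At an unadjusted p under 0.05, 11 of 240 tests passed, beside 4.05% over all probe sets. The type I chains Col1a1 and Col1a2, which assemble into 1 trimer and are the main collagen of connective tissue, had the widest ranges, -0.41 to 0.37 and -0.47 to 0.39. In Fischer females, Col1a2 was 8.89, 9.0, 8.84 and 8.53 in controls and 8.38, 8.42, 8.27 and 8.29 after postnatal lead at 250 ppm. All exposed females lay below all controls, yet the difference of -0.47 ± 0.19 did not pass (adjusted p = 1). The highest difference of Col1a2 was that of Long Evans females on postnatal lead at 750 ppm, which had 9.03, 9.19, 8.58 and 8.80 against 8.17, 8.24, 8.60 and 9.02 in controls. These groups overlapped, with a difference of 0.39 ± 0.20. Col3a1, the chain of type III collagen in reticular fibres and vessel walls, ranged from -0.27 to 0.12. Col11a1, a minor fibril chain that sets fibril width in cartilage, ranged from -0.18 to 0.12, and Col5a1, which starts type V and I fibrils, from -0.18 to 0.15.

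The proteoglycans and glycoproteins (7 probe sets) had the widest spread. Ogn, the osteoglycin gene, ranged from -0.91 in Fischer females after postnatal lead at 250 ppm to 0.84 in Long Evans females after postnatal lead at 750 ppm. In the Fischer females its levels were 11, 11.10, 11.01 and 10.47 in controls and 9.88, 10.40, 9.55 and 10.14 in the exposed group, and in the Long Evans females 9.01, 10.09, 10.78 and 11.52 in controls and 11.32, 11.49, 10.86 and 11.08 in the exposed group. The Fischer groups did not overlap and the Long Evans groups did, since those controls alone spanned over 2 log2 units. Neither difference passed (SE 0.40 and 0.44, adjusted p = 1 in both).

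Beside these Ogn values, the meninges score was 7.90 to 8.21 in the Fischer female controls and 7.68 to 8.03 in the exposed group, and 7.65 to 8.26 and 7.97 to 8.30 in the Long Evans females. Its part in the differences was not tested for these contrasts. Bgn, the biglycan gene, ranged from -0.34 to 0.33, with its extremes in the same groups as Ogn. Dcn, the decorin gene, ranged from -0.29 to 0.18, Lum, the lumican gene, from -0.42 to 0.34, Fbln1, a fibulin of basement membranes, from -0.25 to 0.20, and Fn1, the fibronectin gene, from -0.19 to 0.39. The widest Fn1 difference was in the Long Evans perinatal 750 ppm females, which had 8.83, 8.81, 9.06 and 9.01 against 8.25, 8.60, 8.41 and 8.90 in controls. Of these exposed females, 2 lay above all controls and 2 below the highest control, and the difference of 0.39 ± 0.12 did not pass (adjusted p = 0.43).

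The meningeal genes Igf2, an embryonic and leptomeningeal growth factor, and Slc6a13, a GABA and taurine transporter, ranged from -0.84 to 0.87 and from -0.63 to 0.65. Igf2 in Sprague Dawley females was 8.43, 9.0, 9.05 and 9.49 in controls and 10.15, 8.92, 10.25 and 10.15 after perinatal lead at 250 ppm, where 3 of 4 exposed females lay above all controls (0.87 ± 0.42, adjusted p = 0.99). Choroid plexus scores in the same groups were 7.16 to 9.22 and 8.04 to 9.99, and their part in the difference was not tested.

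The basement membrane chains Col4a1, Col4a3 and Col4a4 moved little, between -0.17 and 0.13 in 72 tests, with a smallest adjusted p of 0.51, and Col4a1, a chain of nearly all basement membranes, ranged from -0.14 to 0.07. The fibril-associated chains, which sit on the surface of fibrils (Col9a1, Col9a2, Col12a1, Col14a1 and Col16a1), lay between -0.25 and 0.21, with Col9a1 at -0.25 to 0.12, and the transmembrane chains Col13a1, Col17a1 and Col23a1 between -0.19 and 0.16. Among network and anchoring collagens Col8a1, a short-chain collagen of vessel walls and of the eye, was the widest, from -0.66 in the Long Evans perinatal 250 ppm males to 0.72 in the Fischer postnatal 750 ppm males. In those Fischer males it was 7.79, 7.22, 7.81 and 8.81 against 6.79, 8.14, 7.01 and 6.80 in controls, where only the control at 8.14 overlapped the exposed range (0.72 ± 0.31, adjusted p = 1). The 3 probe sets of Col6a4 differed among themselves: their lowest differences were -0.31, -0.31 and -0.21 and lay in Long Evans, Sprague Dawley and Long Evans males, each after postnatal lead at 750 ppm. The anchoring fibril gene Col7a1 and the growth plate gene Col10a1 stayed between -0.14 and 0.22.

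**Figure D2:**
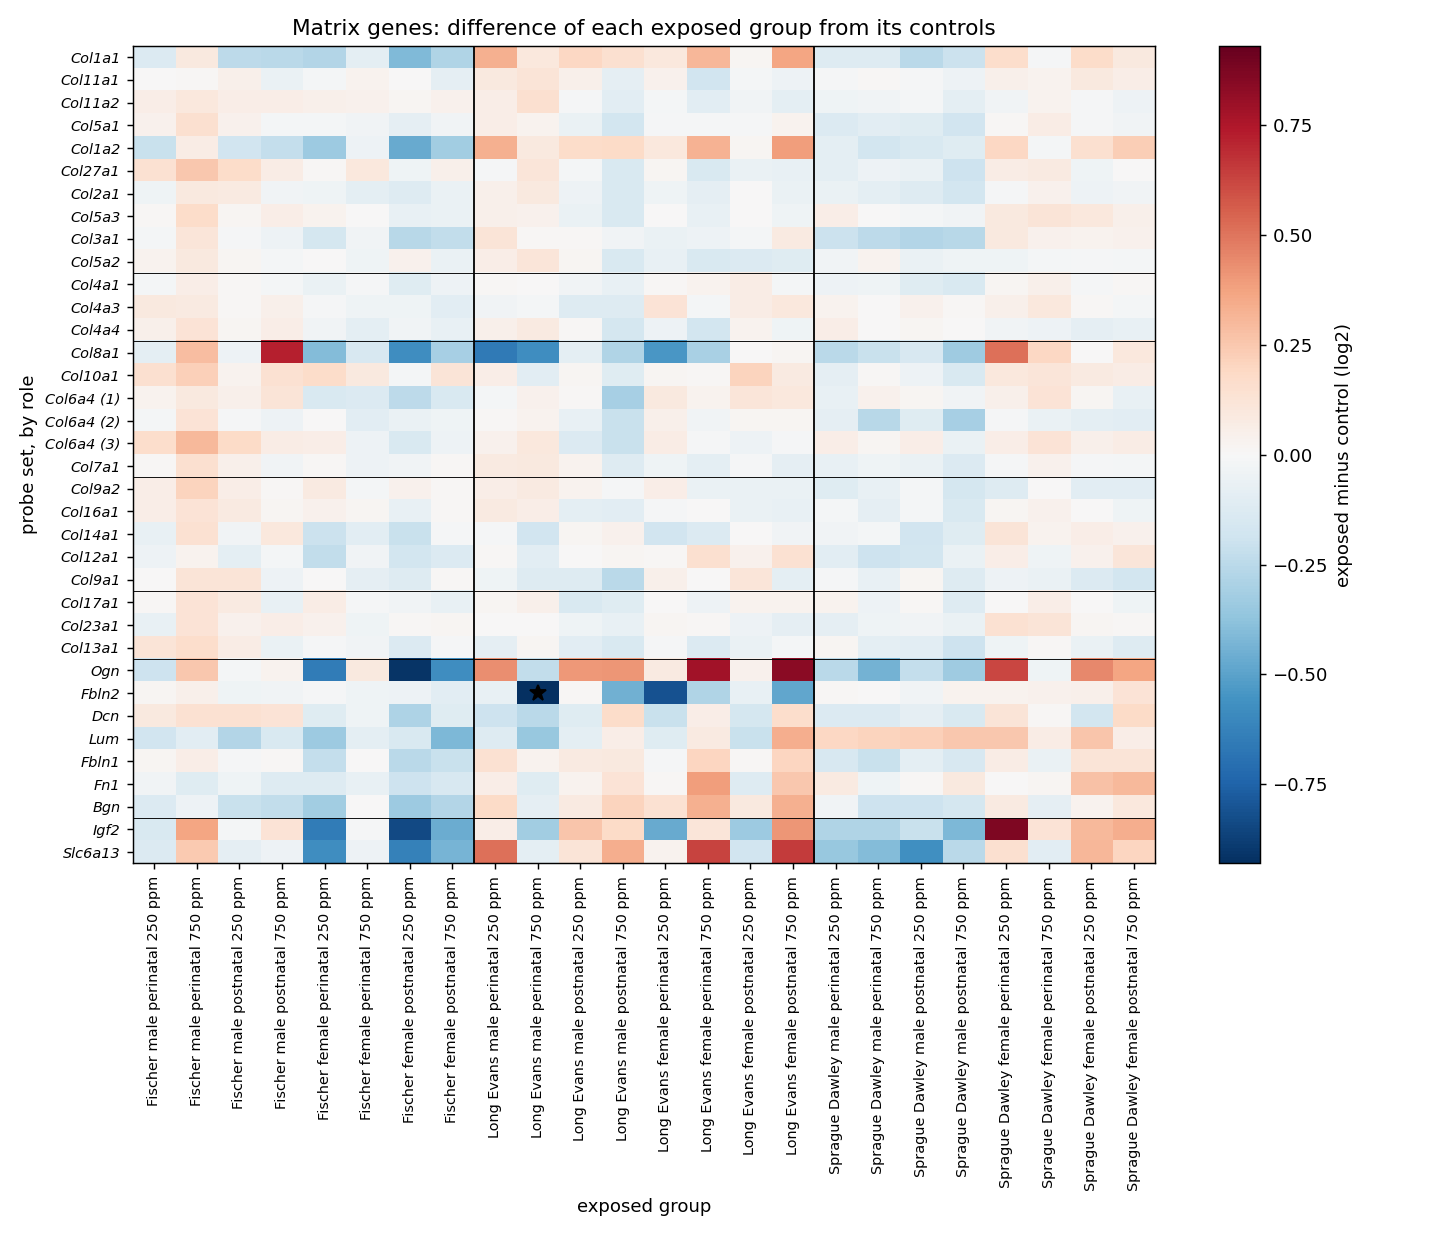
Difference of each exposed group from the controls of its strain and sex (colour, log2; blue lower and red higher in the exposed group) for the 36 probe sets (rows, parted by role) in the 24 exposed groups (columns, parted by strain). The star marks the only call, Fbln2 in Long Evans perinatal 750 ppm males (-0.93). Ogn, Igf2, Slc6a13 and Col8a1 show wide differences in either direction, from -0.91 to 0.87, and none of these was called.

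As a group the members followed no common direction across the strains. The median member difference lay between -0.136 (Sprague Dawley males after postnatal lead at 750 ppm, where 4 of 36 members were positive against 46.3% of all probe sets) and 0.126 (Fischer males after perinatal lead at 750 ppm, 33 of 36 positive against 54.8%). The medians over all probe sets in these contrasts were -0.008 and 0.012. Neither contrast had a called member, and 4 and 2 members passed at an unadjusted p under 0.05, beside 4.2% and 4.04% of all probe sets.

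For the mean of the 8 lead effects no member was called in any strain, beside 0% of all probe sets in Fischer, 0.212% in Long Evans and 0.0171% in Sprague Dawley. Over the 9 contrasts of dose, of period and of sex, again no member was called, beside 0.027% of all probe sets. At an unadjusted p under 0.05, 4 member tests of 108 passed in Fischer, 12 of 108 in Long Evans and 1 of 108 in Sprague Dawley, and 1, 2 and 0 of 36 for the mean effects. Over all probe sets 4.93% passed in the 9 contrasts. In Long Evans this share was 6.94% for dose, 12.1% for period and 2.88% for sex. For the mean effects it was 2.5%, 7.45% and 3.64% in Fischer, Long Evans and Sprague Dawley. In the Fischer contrast of the male minus the female lead effect all 36 members were positive (median 0.10), beside 64% of all probe sets (median 0.031). In Sprague Dawley 3 of 36 were positive (median -0.108), beside 48.2% (median -0.004). None was called in either, and 0 and 1 passed unadjusted, beside 2.51% and 2.6% of all probe sets. These contrasts hold the difference of the male and female controls with its sign turned. Among those controls, male minus female was positive for 4 of 36 members in Fischer (median -0.13, beside 32.5% of all probe sets) and for 26 of 36 in Sprague Dawley (median 0.044, beside 50.5%).

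Among control animals the strains differed in a few members. Fn1 was highest in Fischer: the controls ran from 9.15 to 9.55 in Fischer (median 9.27), from 8.25 to 8.90 in Long Evans (median 8.54) and from 8.26 to 9.34 in Sprague Dawley (median 8.84). Fischer and Long Evans did not overlap, and Sprague Dawley overlapped both. Fn1 was lower in Long Evans than in Fischer by 0.72 ± 0.11 (adjusted p = 1.2e-07), the only member of 36 called there, beside 25.1% of all probe sets called and 13.4% called lower. It was lower in Sprague Dawley than in Fischer by 0.45 ± 0.11 (adjusted p = 0.0025).

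Markers of vessel wall cells also differed between Long Evans and Fischer. Of 16 probe sets of mural cell markers (15 genes), 9 were called lower in Long Evans than in Fischer controls (median -0.27) and none higher, among them the pericyte channel genes Abcc9 (-0.31) and Kcnj8 (-0.23), Rgs5 (-0.32) and Pdgfrb (-0.20). Of the 19 meningeal markers 3 were lower (median -0.04), and of 17 endothelial markers 4 were lower and 3 higher. Between Sprague Dawley and Fischer controls, where Fn1 was lower too, the only mural marker called was Cspg4. It was higher in Sprague Dawley, by 0.16 (limma, adjusted p = 0.018). The mural score over all animals was 8.02 to 8.65 in Fischer, 7.87 to 8.40 in Long Evans and 8.04 to 8.60 in Sprague Dawley. The part of mural cells in the Fn1 differences was not tested. With the meninges score as a covariate the Fn1 difference of Long Evans from Fischer was -0.67 (adjusted p = 1.1e-10).

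Between Sprague Dawley and Fischer controls 4 of 36 members were called, all lower in Sprague Dawley, beside 10.5% of all probe sets called and 6.13% called lower. The widest was Lum, at 6.85 to 7.49 in Fischer (median 7.17) and 6.41 to 6.82 in Sprague Dawley (median 6.66), with no overlap (-0.55 ± 0.16, adjusted p = 0.015). Col11a1 was 7.47 to 7.77 in Fischer and 7.21 to 7.55 in Sprague Dawley, overlapping slightly (-0.23 ± 0.05, adjusted p = 0.00017). Fbln2 was 8.73 to 9.02 and 8.39 to 8.63, with no overlap (-0.27 ± 0.08, adjusted p = 0.018). The Fn1 difference is given above. Without Sprague Dawley male control 1, the calls for Lum (adjusted p = 0.056) and Fbln2 (0.060) were lost, leaving 2, and Fbln2 was also lost without Fischer male control 1 (0.051) and with array weights (-0.23, adjusted p = 0.055). In a fit of these strains alone the Fn1 difference of -0.45 had an adjusted p = 0.053.

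Between Sprague Dawley and Long Evans controls 2 of 36 members were called, beside 24.5% of all probe sets. Col12a1, a fibril-associated chain that bridges fibrils in dense tissue, was 7.63 to 8.11 in Sprague Dawley and 7.34 to 7.77 in Long Evans (0.31 ± 0.08, adjusted p = 0.0032). Col11a1 was lower in Sprague Dawley by 0.15 ± 0.05 (adjusted p = 0.011), and 7.4 to 7.68 in Long Evans. The strains overlapped in both genes. The Col11a1 call was lost without Sprague Dawley male control 2 (adjusted p = 0.057) and in a fit of these strains alone (adjusted p = 0.080). Of the 16 mural probe sets, 9 were higher in Sprague Dawley than in Long Evans and none lower (median 0.23), whose part was not tested. With the meninges score as a covariate Col12a1 differed by 0.26 (adjusted p = 2.1e-06).

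**Figure D3:**
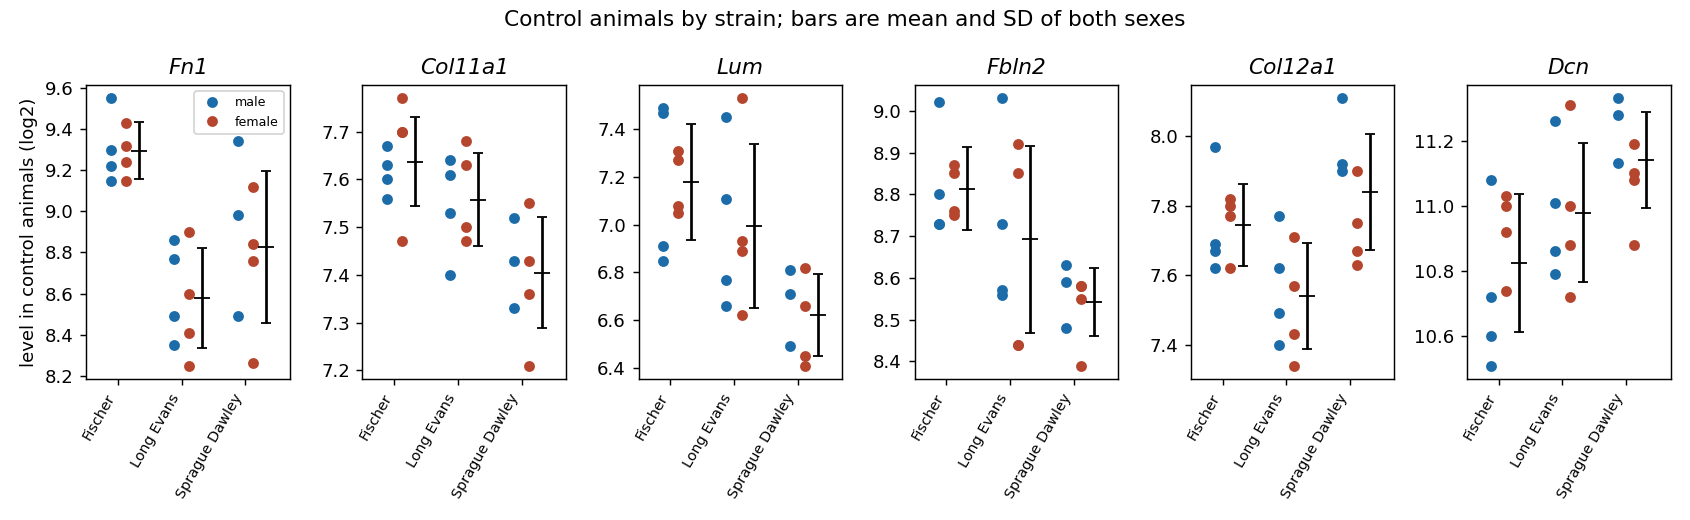
Log2 level of 6 members (panels, each with its own vertical axis) in the control animals of each strain (horizontal axis). Points are animals, blue males and red females, and the black bar beside them is the mean ± SD over both sexes. Fn1 in Fischer (9.15 to 9.55) lies above all Long Evans controls, and Lum in Sprague Dawley (6.41 to 6.82) below all Fischer controls, while Dcn overlaps between the strains.

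Averaging all 10 groups of a strain, exposed animals included, called more members and more of all probe sets. For Long Evans minus Fischer 16 members were called beside 61.2% of all probe sets, for Sprague Dawley minus Fischer 10 beside 40.7%, and for Sprague Dawley minus Long Evans 15 beside 62.2%. In the last of these Fbln2 turned from -0.15 ± 0.08 among controls (adjusted p = 0.19) to 0.19 ± 0.04 (adjusted p = 3.9e-06) over groups that include the exposed rats. Dcn then was higher in Sprague Dawley than in Fischer by 0.30 ± 0.05 (adjusted p = 3.6e-06). Its controls were 10.51 to 11.08 in Fischer, 10.72 to 11.31 in Long Evans and 10.88 to 11.33 in Sprague Dawley. Among controls Dcn was at 0.33 ± 0.13 for Sprague Dawley minus Fischer (adjusted p = 0.082), which was not called. It was called with the label-number block (0.30, adjusted p = 0.038), in a fit of these strains alone (0.030), with array weights (0.025) and with the choroid plexus (0.043) or meninges score (0.0051) as a covariate. With the meninges score Dcn was also called for Long Evans minus Fischer (0.22, adjusted p = 0.031). Between male and female controls no member was called in any strain, beside 0.00228% of all probe sets, and 3, 2 and 1 of 36 passed at an unadjusted p under 0.05 in Fischer, Long Evans and Sprague Dawley. Over all probe sets 6.28%, 3.7% and 3.11% passed.

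Members followed the numbers in the animal labels in Fischer. Within each group, animals were parted into the lower and the upper label numbers of its run. In Fischer, 30 of 36 members were called lower in the upper numbers and none higher, beside 60.9% of all probe sets called and 42.3% called lower. The member median was -0.179 against -0.067 over all probe sets. After a further quantile normalization it was -0.102 against -0.004, with 19 called lower and 1 higher. The share of all probe sets called after that normalization was not recorded, so these counts cannot be set against it. Bgn had the largest difference, -0.58 ± 0.06 (adjusted p = 3.9e-10), followed by Igf2 at -0.44 ± 0.16, Slc6a13 at -0.43 ± 0.12 and Ogn at -0.40 ± 0.17. The type I chains stood at -0.32 ± 0.06 and -0.29 ± 0.07, while Col4a4 and Col10a1 both lay at 0.01. Of the 19 meningeal markers 14 were lower and 2 higher in the upper numbers (median -0.36), and their part was not tested.

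In Long Evans no member was called between lower and upper label numbers, beside 0.0993% of all probe sets. At an unadjusted p under 0.05, 4 of 36 members passed, beside 9.56% of all probe sets. In Sprague Dawley, where 18.9% of all probe sets were called, Dcn was higher in the upper numbers by 0.28 ± 0.07 (adjusted p = 0.0039) and Col23a1 lower by 0.13 ± 0.03 (adjusted p = 0.0036).

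**Figure D4:**
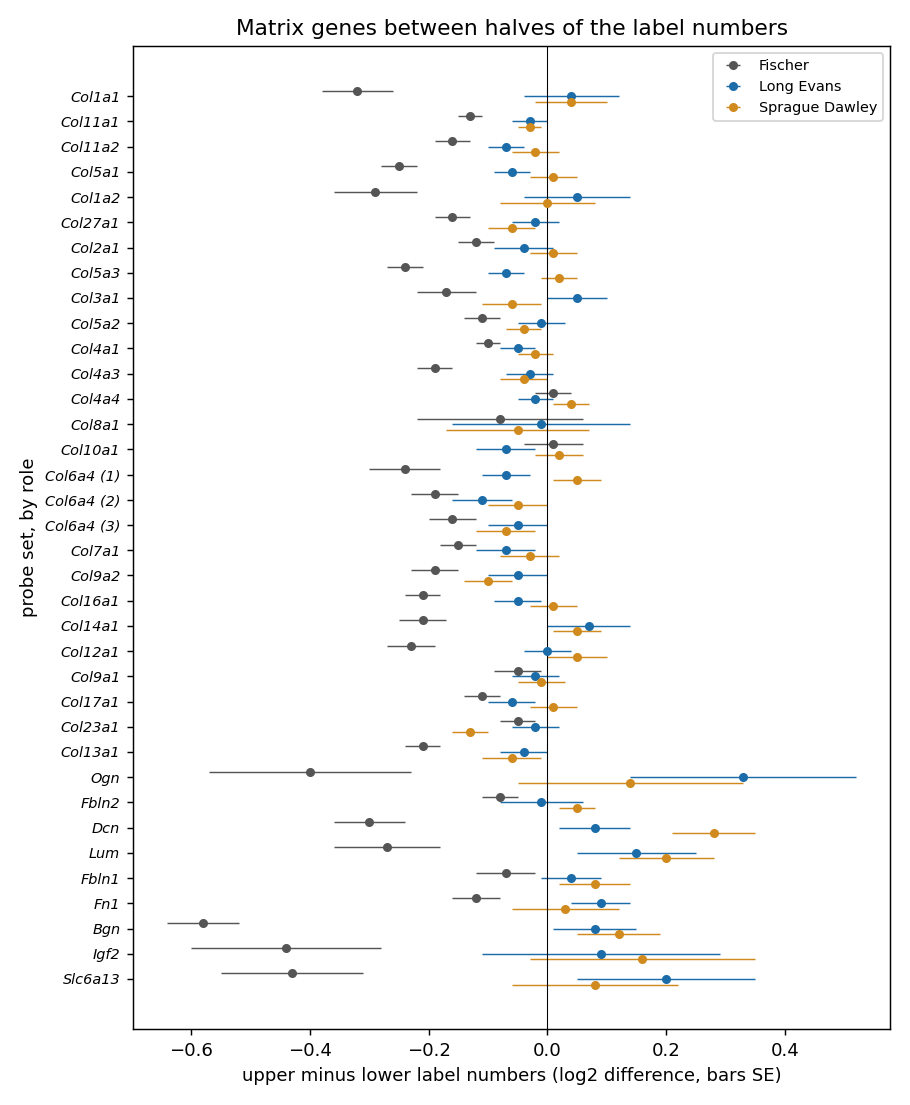
Difference between upper and lower label numbers (horizontal axis, log2; bars are SE) for each of the 36 probe sets (vertical axis, by role) in the 3 strains (colours). Fischer points lie left of 0 for 34 members, reaching -0.58 for Bgn, while Long Evans and Sprague Dawley points scatter around 0.

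Across animals the members parted into a set that followed the meningeal markers and a set that did not. After removal of group and label-number means, 12 of 36 members had a Pearson r over 0.5 with the meninges score in every strain (40, 40 and 39 animals), and 22 had it in none. Ogn was closest, at r = 0.94, 0.95 and 0.96 in Fischer, Long Evans and Sprague Dawley (Spearman's rho 0.95, 0.95 and 0.97; r without the 2 farthest animals 0.93, 0.94 and 0.95). The others were Slc6a13 (0.86 to 0.91), Fbln1 (0.83 to 0.91), Igf2 (0.80 to 0.87), Col1a2 (0.79 to 0.92), Col1a1 (0.78 to 0.88), Col12a1 (0.78 to 0.90), Bgn (0.78 to 0.91), Dcn (0.67 to 0.82), Fn1 (0.67 to 0.76), Col3a1 (0.62 to 0.79) and Col8a1 (0.53 to 0.59). The values share the RNA sample, the array and its scaling, so these correlations describe the samples only.

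By role, both meningeal genes, 5 of 7 proteoglycans and glycoproteins, 3 of 10 fibrillar chains, 1 of 5 fibril-associated chains and 1 of 6 network and anchoring probe sets were in the first set, and none of the basement membrane or transmembrane chains. Lum (0.43 to 0.72) and Col14a1 (0.35 to 0.62) passed 0.5 in some strains. Among fibrillar chains, the type I pair and Col3a1 followed the score, whereas Col5a1, Col5a2, Col5a3, Col2a1, Col11a1, Col11a2 and Col27a1 lay between -0.25 and 0.24. Fbln2 was the only member of the proteoglycan and glycoprotein group that stayed under 0.5 in every strain, at -0.30, 0.06 and 0.02.

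The choroid plexus score itself correlated with the meninges score at 0.56 in Fischer, 0.57 in Long Evans and 0.58 in Sprague Dawley. Col8a1 had r = 0.69, 0.75 and 0.89 with the choroid plexus score in Fischer, Long Evans and Sprague Dawley, above its values with the meninges score. Igf2 had 0.91, 0.80 and 0.84. Col1a2 was at 0.12, 0.31 and 0.38 and Slc6a13 at 0.18, 0.26 and 0.33. Both of these followed the mural score closely (0.82, 0.77 and 0.87 for Col1a2, 0.91, 0.74 and 0.91 for Slc6a13), and the mural and meninges scores themselves correlated at 0.75, 0.75 and 0.84, so the scores do not separate meninges from vessel walls.

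Pairs within the first set of 12 had a median r of 0.67 (66 pairs, 0.26 to 0.93) over the animals of all strains. Pairs among the 24 others had 0.52 (276 pairs, -0.34 to 0.86), so many of these varied together as well. What they share was not tested. Pairs between the sets had -0.02 (288 pairs, -0.26 to 0.64). The 12 were chosen by their r with the meninges score in these same animals. The values within the 12 and between the sets follow in part from that choice. Fbln2 had r between -0.11 and 0.06 with the 12. Some members are neighbours in the genome: Dcn and Lum on chromosome 7, Col3a1 and Col5a2 on chromosome 9, and Col4a3 and Col4a4, whose promoter windows overlap, also on chromosome 9. Dcn and Lum had r = 0.66, 0.69 and 0.14 in the 3 strains, Col3a1 and Col5a2 0.38, 0.48 and 0.33, and Col4a3 and Col4a4 0.45, 0.53 and 0.65.

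**Figure D5:**
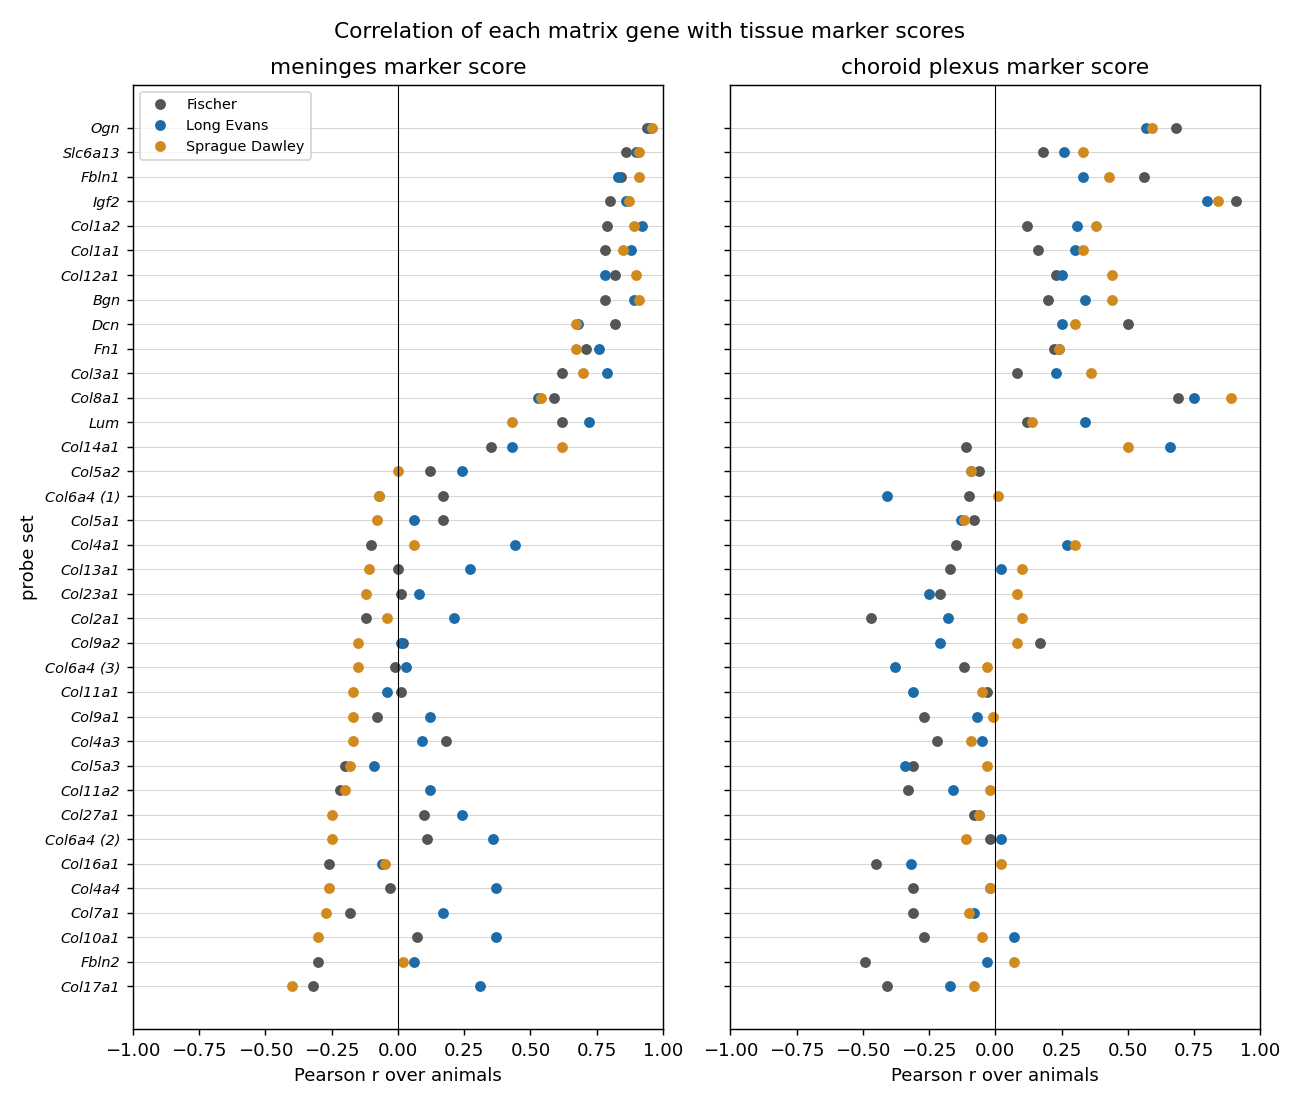
Pearson r over animals (horizontal axis) of each of the 36 probe sets (vertical axis, ordered by the lowest r with the meninges score) with the mean level of 19 meningeal markers (left) and of 17 choroid plexus markers (right), by strain (colours), after removal of group and label-number means. Ogn, at 0.94 to 0.96, heads the left panel and Fbln2 lies near its foot, while Col8a1 and Igf2 stand out on the right.

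The genes that process, anchor and degrade collagen were also mostly without a call. Over the 24 exposure contrasts no gene was called among 32 probe sets of collagen maturation (hydroxylases, chaperones, proteinases and cross-linking enzymes), 24 of collagen receptors and matrix-degrading enzymes, 12 of basement membrane partners of collagen IV and 16 of the TGF-beta group, whose ligands induce matrix genes. At an unadjusted p under 0.05, 6.64%, 6.94%, 5.56% and 6.77% of their tests passed, beside 4.05% over all probe sets. For the mean lead effect 1 gene of these lists was called: Tgfbr3, the TGF-beta co-receptor betaglycan, was higher in Long Evans by 0.34 ± 0.08 (adjusted p = 0.046). The medians of the 4 lists in that contrast were between -0.002 and 0.055, beside 0.001 over all probe sets.

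Strain differences of controls were seen in each of these lists. Between Long Evans and Fischer, 11 of 24 receptors and enzymes were called (8 higher, 3 lower), 9 of 32 probe sets of collagen maturation (5 higher, and 4 lower of which 2 belong to Adamts3), 4 of 12 basement membrane partners (1 higher, 3 lower) and 6 of 16 of the TGF-beta group (4 higher, 2 lower), beside 25.1% of all probe sets. The collagen receptor kinase Ddr2 was lower in Long Evans by 0.74 ± 0.08 (adjusted p = 2.2e-13), and the prolyl hydroxylase P3h3 (0.41 ± 0.05) and the lysyl hydroxylase Plod1 (0.35 ± 0.05) were higher. The heparan sulfate proteoglycan gene Agrn was higher by 0.33 ± 0.05 (adjusted p = 3.6e-07).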

How the data were processed

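Hippocampal RNA of 3 rat strains was measured on Affymetrix arrays, 1 per animal. The deposited values were log2 levels per probe set, made by the authors with RMA and Partek, per the submitters' processing notes; versions, order and any batch correction are not given in the sources used here. They ranged from 2.293 to 14.18 with none missing. No detection calls or raw scans were used, and the number of animals limits the precision. Levels of different probe sets were not compared. Symbols came from the platform annotation, and all 34 member genes were found in GRCr8 by gene identifier. The members and lists were chosen with earlier results of these data known.

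The model was limma's (3.58.1, R 4.3.3) with a mean per group, per strain for effects of lead, and in 1 fit of all 30 groups for strain and sex contrasts. Tests were two-sided, adjusted by Benjamini-Hochberg over all 29214 probe sets of a contrast, and called at an adjusted p under 0.05. Errors are SE. The code was tested on simulated data. Named were members called for lead, the 5 highest and 5 lowest called members of other contrasts, a set of members listed by name whatever their result (among them Dcn, Lum, Ogn, Bgn, Fn1, Igf2 and the type I chains), and up to 4 called genes of each other list; others shown with values were picked after these were seen. Scores are mean log2 levels. Figures used matplotlib 3.10.9. Alternatives were a further quantile normalization, a filter at the 40th percentile, array weights, the lower or upper label numbers as a block, marker scores as covariates, other fits, and leaving out animals.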

Additional observations from a re-analysis of the deposited data

Results flagged for a closer look

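Of 203 groups of 4 tested for 7 measures (Fbln2, Fn1, Dcn, Lum, Col11a1, Col12a1 and the meninges score), 12 held an animal far from the others by Dixon's test. Chance flags about 1 in 20 groups. All values are log2 levels.

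For Fbln2, the animals apart were Fischer female perinatal 750 ppm replicate 4 at 8.59 (others 8.83 to 8.84), Fischer male postnatal 750 ppm replicate 4 at 8.93 (others 8.74 to 8.75) and Sprague Dawley female control 2 at 8.39 (others 8.55 to 8.58). The last is one of the arrays against their sex label. None was in Long Evans. For Fn1, Fischer male perinatal 250 ppm replicate 1 stood at 9.62 (others 9.12 to 9.19), Fischer female perinatal 750 ppm replicate 4 at 8.94 (others 9.30 to 9.32), Fischer female postnatal 750 ppm replicate 4 at 9.03 (others 9.17 to 9.19) and Sprague Dawley female postnatal 250 ppm replicate 4 at 9.32 (others all 8.91).

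For Dcn, Sprague Dawley male perinatal 250 ppm replicate 2 lay at 10.44 (others 11.32 to 11.38). Col11a1 was 7.33 in Long Evans male postnatal 750 ppm replicate 4 (others all 7.51), and Col12a1 was 7.36 in Long Evans female postnatal 750 ppm replicate 3 (others 7.74 to 7.77). The meninges score was 7.64 in Sprague Dawley female control 1 (others 8.01 to 8.05) and 7.87 in Sprague Dawley male postnatal 250 ppm replicate 3 (others 8.10 to 8.13).

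In the fit of all arrays the effect of lead on Fbln2 was called different between strains. It was 0.42 higher in Sprague Dawley than in Long Evans (log2, limma, adjusted p = 0.023), from a mean difference of 0.03 and of -0.38. The call was lost in a fit of these strains alone, and the other limits are given in the report.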

How the results depend on the processing

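For lead in Long Evans, 1 member was called over the exposure contrasts. This count was 2 with array weights and in 1 fit of all arrays, which added Fbln2 in perinatal 250 ppm females (adjusted p = 0.037 and 2.5e-06), 0 once arrays against their sex label were left out, and 0 to 2 when animals were left out in turn. The fit of all arrays shares 1 spread of Fbln2 over the strains, and that spread was wider in Long Evans than in the others. Its SE for perinatal 750 ppm males was 0.11 rather than 0.16, so its p-values understate the Long Evans spread. The mean effect, with 0 members, gave 1 (Fbln2) with the filter on low levels (adjusted p = 0.037), array weights (0.045) and 1 fit of all arrays (3.8e-05), and 0 to 1 when animals were left out. The dose, period and sex contrasts gave 2 in 1 fit of all arrays. Long Evans minus Fischer for the lead effect, with 0, gave 1 after a further quantile normalization, with the filter, and with the label-number block, and 0 to 1 without one replicate number. Sprague Dawley minus Long Evans, with 1, gave 0 without the arrays against their sex label and in a fit of these strains alone, and 0 to 1 without one replicate number. In Fischer and Sprague Dawley the counts for lead were 0 throughout.

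For controls of Long Evans against Fischer, the count of 1 was 2 after quantile normalization, with the filter, with the block and with the choroid plexus score, 3 with the meninges score and 1 to 3 when animals were left out. Sprague Dawley against Fischer, with 4, gave 2 to 5. Sprague Dawley against Long Evans, with 2, gave 4 with array weights and with the block, 1 in a fit of these strains alone and 1 to 5 when animals were left out. Quantile normalization added Fn1 there (adjusted p = 0.036), and the meninges score added Lum (adjusted p = 0.0037). With all 10 groups of a strain the 3 counts were 16, 10 and 15, and their shares over all probe sets are given above. For the other alternatives such shares are not given, so those counts show only how member calls moved. Without label-number means removed, 11 members rather than 12 followed the meninges score in every strain. The causes were not tested. Of 732 alternative values of single members, 691 kept direction and side of the threshold, 16 lost a call, 11 gained one and 14 turned in direction. With all 10 groups of a strain, Fbln2 for Sprague Dawley minus Long Evans turned from -0.15 to 0.19, and Fbln1 for Long Evans minus Fischer from -0.03 to 0.10 (adjusted p = 0.021). Fbln1 was also 0 with array weights, 0.02 with the meninges score, 0.03 without the arrays against the sex label, and -0.07 to 0.01 when animals were left out. The other turns were differences of Fbln2 near 0 in Long Evans at 250 ppm, none called: postnatal males (0.01) gave -0.04 without the arrays against the sex label and -0.06 to 0.12 when animals were left out, perinatal males (-0.07) -0.13 to 0.03 and postnatal females (-0.07) -0.15 to 0.01. No detection calls were used, so it is not known whether weakly expressed collagens were detected. Differences near 0 in them are not shown to mean no change. Groups held at most 4 animals, and the batches behind the RMA levels are unknown. Animals were blocked only by lower or upper label numbers, which among effects of lead changed the call of Fbln2 for Long Evans minus Fischer (-0.36, adjusted p = 0.033). This block lies within groups, so it does not part batch from group. No paired analysis was possible because single replicate numbers follow accession order and the labels pair no animals by them.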
